A study of Mus musculus with 31 samples.

Results

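The genes described here encode parts of the B cell receptor and proteins that mark B cell identity, and their values were read from cDNA arrays of 4 organs of Dll1 mutant mice. The list held 9 genes, Ms4a1, Cd79a, Cd79b, Cd22, Blk, Pax5, Cr2, Fcer2a and Blnk, and its genes were chosen by function with their mutant to pool ratios in spleen on these arrays known. A gene was taken as measured where a spot of the array carried its name, which gave 5 of the 9 genes (Ms4a1, Cd79b, Cd22, Blnk and Blk), with 1 spot each, out of 9026 named genes on 20794 spots. Cd79a, Pax5, Cr2 and Fcer2a had no spot under their names and were left out. Of the 5 genes, 4 had a value in at least 3 mice in spleen, and Blk had one in 2 mice.

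The B cell receptor is a membrane immunoglobulin that signals through the paired chains Cd79a and Cd79b. Src family kinases such as Blk phosphorylate these chains, and the adaptor Blnk joins the activated kinases to the enzymes downstream, while Cd22 recruits phosphatases that damp the signal. Ms4a1 encodes CD20, a surface protein of mature B cells. Dll1 is a ligand of Notch receptors, and in the spleen its signal through Notch2 is known to support marginal zone B cells.

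Each array held RNA of 1 male mutant mouse in one dye and RNA pooled from wild-type males, of the matching organ, in the other. The labels give 17 weeks as the age of the mutants and 18 weeks as that of the pooled animals, and 20 µg of RNA went into each labelling. The labels name the line only as Dll1. The paper describes heterozygous Dll1tm1Gos/+ mice on the C3HeB/FeJ background, in which a lacZ insertion disrupts the coding sequence of 1 copy of Dll1, but it cites another series record and states other numbers of mice and another age, so it is not certain that the animals are the same. There were 4 mice, each measured in spleen, thymus, liver and brain on 2 arrays with the dyes swapped, apart from thymus of mouse 2, which had 1 array. The 31 arrays held 12693 to 20649 values each (median 20312), and both spleen arrays of mouse 1 were the least complete of all spleen arrays. The pool is 1 control sample per organ, so the spread between wild-type mice is in none of the errors below. All ratios are log2 values, and 1 unit is a doubling. They carry no level of expression, so neither how strongly a gene was expressed nor the labelled organ could be checked from them.

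The direction and the gene names of the values had to be inferred. The direction of the ratio is likely mutant over pool, because the labels list the mutant RNA first and the pool second on every array whatever the dye, and because the study presents its array ratios as mutant against wild-type. It is not settled by the data, since the 2 arrays of a mouse correlated at -0.19 to 0.13 over all spots. Every sign below would turn if the ratio were pool over mutant. The gene names rest on a displacement of 11 places between the table of probes and the table of values, which no source states. With it, spots of the same gene shared more of their signal than at any other of 601 displacements tried (mean product of standardised ratios 0.04 against at most 0.0108 elsewhere). Within the 20 equal parts of the table, 11 places ranked first in 13, among them the parts that hold Blnk and Cd22. It ranked 72nd in the part that holds Ms4a1 and Cd79b and 32nd in the part that holds Blk, so the names of these 3 genes have less support. The Dll1 gene itself was named on 2 spots that disagreed in spleen, with 0.66 ± 0.67 (SD, n = 4) on one and -0.57 ± 0.78 (SD, n = 4) on the other, and so did not check the genotype.

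Promoter sequences are given for Cd22 and Blnk, the 2 measured genes that RefSeq's table (build GRCm38.p6) held. Capitals mark matches to short motifs of factors known in B cells. The motifs searched on both strands were the octamer ATGCAAAT, bound by Oct factors, the palindrome of early B cell factor (EBF), which is TCCC and GGGA with any 2 bases between, the ETS core AGGAAG, the E-box CAGGTG and the TATA box TATAAA. The Cd22 window covers chr7:30878979-30879278 on the minus strand and the Blnk window chr19:40994172-40994471 on the minus strand, each from 250 bases before to 50 bases after the gene's start.
Cd22: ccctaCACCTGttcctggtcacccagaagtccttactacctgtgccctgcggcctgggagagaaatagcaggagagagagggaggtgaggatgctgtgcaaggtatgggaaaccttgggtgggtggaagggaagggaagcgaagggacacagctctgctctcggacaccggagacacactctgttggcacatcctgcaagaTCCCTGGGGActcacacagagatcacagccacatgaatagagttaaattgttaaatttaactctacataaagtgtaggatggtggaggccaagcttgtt
Blnk: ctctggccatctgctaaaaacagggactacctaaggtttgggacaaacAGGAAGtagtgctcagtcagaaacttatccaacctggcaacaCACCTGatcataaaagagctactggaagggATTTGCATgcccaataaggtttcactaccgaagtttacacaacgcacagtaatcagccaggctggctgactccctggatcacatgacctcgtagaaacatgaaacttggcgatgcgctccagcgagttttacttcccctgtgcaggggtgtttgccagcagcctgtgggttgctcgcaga
The Cd22 window held an E-box on the opposite strand, starting at -245, and an EBF palindrome at -49. The Blnk window held an ETS core at -202, an E-box on the opposite strand at -160 and an octamer on the opposite strand at -130. Among 32851 promoters of the same length, 1.74% held the octamer, 0.904% the EBF palindrome, 35.4% the ETS core, 20.2% the E-box and 13.6% the TATA box. A match says only that these letters are present.

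In spleen the 4 B cell genes with 3 or more mice all lay below the pool, with means from -1.34 to -0.41. Their median was -0.86, against 0.06 over 8687 named genes, and 40.7% of all spots had a mean below 0. Each of the 4 was below 0 in every mouse measured, as were 13% of all 19591 spots. These ratios chose the list, so they are a description and no test applies to them. In RNA of the organ, fewer B cells and less RNA per B cell cannot be told apart, and neither was tested.

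**Figure D1:**
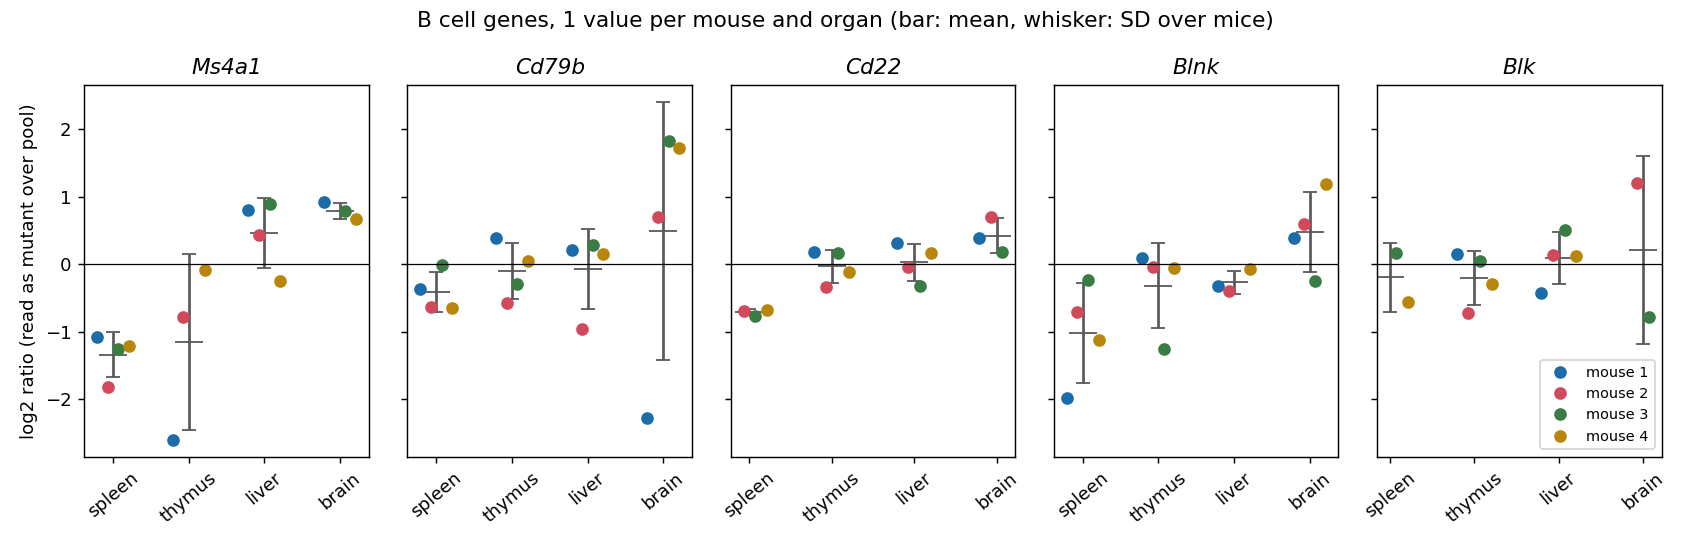
The log2 ratio of each mouse (coloured points) is plotted on the vertical axis for 5 B cell genes in spleen, thymus, liver and brain, with the mean as a bar and the SD over mice as whiskers. Ms4a1 lies between -1.82 and -1.08 in spleen and between 0.67 and 0.91 in the 3 brains measured, while Cd79b in brain spans -2.28 to 1.82.

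Ms4a1, the CD20 gene, stood lowest of the B cell genes in spleen. Its ratios were -1.08, -1.82, -1.26 and -1.21 in mice 1 to 4. The mean of -1.34 ± 0.33 (SD, n = 4) corresponds to a level 2.53-fold higher in the pool, and 0.0613% of spots had a lower mean. All 8 of its spleen arrays were below 0, from -1.84 to -0.69 with the mutant RNA in Cy5 and from -2.29 to -0.31 with it in Cy3. The orientations overlapped, and mouse 1 gave the lowest Cy5 value together with the highest Cy3 value.

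Blnk, the adaptor that follows the receptor's kinases, had the next lowest mean. Its spleen ratios were -1.98, -0.71, -0.24 and -1.13 in mice 1 to 4. The mean was -1.01 ± 0.74 (SD, n = 4), with the pool 2.02-fold higher. The mice differed by more than for Ms4a1, and mouse 1 was the lowest, with both of its arrays low (-2.26 in Cy5 and -1.71 in Cy3). Without mouse 1, whose spleen arrays were the least complete, the Blnk mean was -0.69, just above Cd22 at -0.71. Of the 8 arrays, 7 were below 0, the exception being the Cy5 array of mouse 3 at 0.25.

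Cd22, the inhibitory coreceptor that binds sialic acid, had a value from both arrays in 3 mice. Its spleen ratios were -0.69, -0.76 and -0.68 in mice 2, 3 and 4. The mean was -0.71 ± 0.05 (SD, n = 3), with the pool 1.64-fold higher. The Cy5 array of mouse 1 stood apart at 2.55, and it was not used because the Cy3 array of that mouse had no value. With that single array kept as the value of mouse 1, the mean became 0.11, so the direction for Cd22 rests on leaving it out. In mouse 1, 39.0% of spots lacked a spleen value in Cy5 and 26.2% in Cy3.

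Cd79b, the signalling chain of the receptor itself, was the nearest to the pool of the 4 genes with 3 or more mice. Its spleen ratios were -0.36, -0.63, -0.01 and -0.65 in mice 1 to 4. The mean was -0.41 ± 0.30 (SD, n = 4), with the pool 1.33-fold higher, and 10.2% of spots had a lower mean. Mouse 3 was near 0 on both arrays (-0.05 in Cy5 and 0.02 in Cy3), and mice 2 and 4 were low mainly in Cy3 (-1.23 and -1.09).

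Blk, the Src family kinase of B cells, had a ratio of 0.17 in spleen mouse 3 and of -0.56 in mouse 4. The other mice had only the Cy3 array, at 0.35 in mouse 1 and 1.66 in mouse 2. These values fell on both sides of the pool. The order in spleen, from the lowest mean, was thus Ms4a1, Blnk, Cd22, Cd79b and Blk, and the ranges of neighbours in this order overlapped, apart from those of Cd22 and Cd79b. By mouse, the median of the B cell genes with a value was -1.08 in mouse 1 (3 genes), -0.70 in mouse 2 (4 genes), -0.24 in mouse 3 (5 genes) and -0.68 in mouse 4 (5 genes), against medians of all spots of 0.30, 0.05, 0.02 and 0.05. Cd22 and Blk had no value in mouse 1 and Blk had none in mouse 2, so these medians do not rank the mice over the same genes. Mouse 3 was the nearest to the pool by these medians.

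Taken by dye, 15 of 18 spleen values of the 5 genes were below 0 with the mutant RNA in Cy5 (83.3%, against 45.1% of all spleen values in that orientation). With the mutant RNA in Cy3, 15 of 19 were below 0 (78.9%, against 47.4%). Most spleen values were thus below 0 in both orientations. The spleen ratios that chose the list were averaged from these same arrays, so these counts are a description and no test applies to them. They also pool values that share genes and mice. In the other organs the share below 0 differed by dye. In thymus 13 of 19 values were below 0 in Cy5 and 6 of 15 in Cy3 (50.4% and 52.7% of all thymus values). The counts were 12 of 20 and 5 of 19 in liver (47.3% and 50.9% of all values) and 9 of 17 and 5 of 19 in brain (45.1% and 48.7%). For 0 of the 5 genes did the orientations fail to overlap in spleen, where 11.1% of all spots did not overlap, and the same held in thymus (8.01% of all spots).

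**Figure D2:**
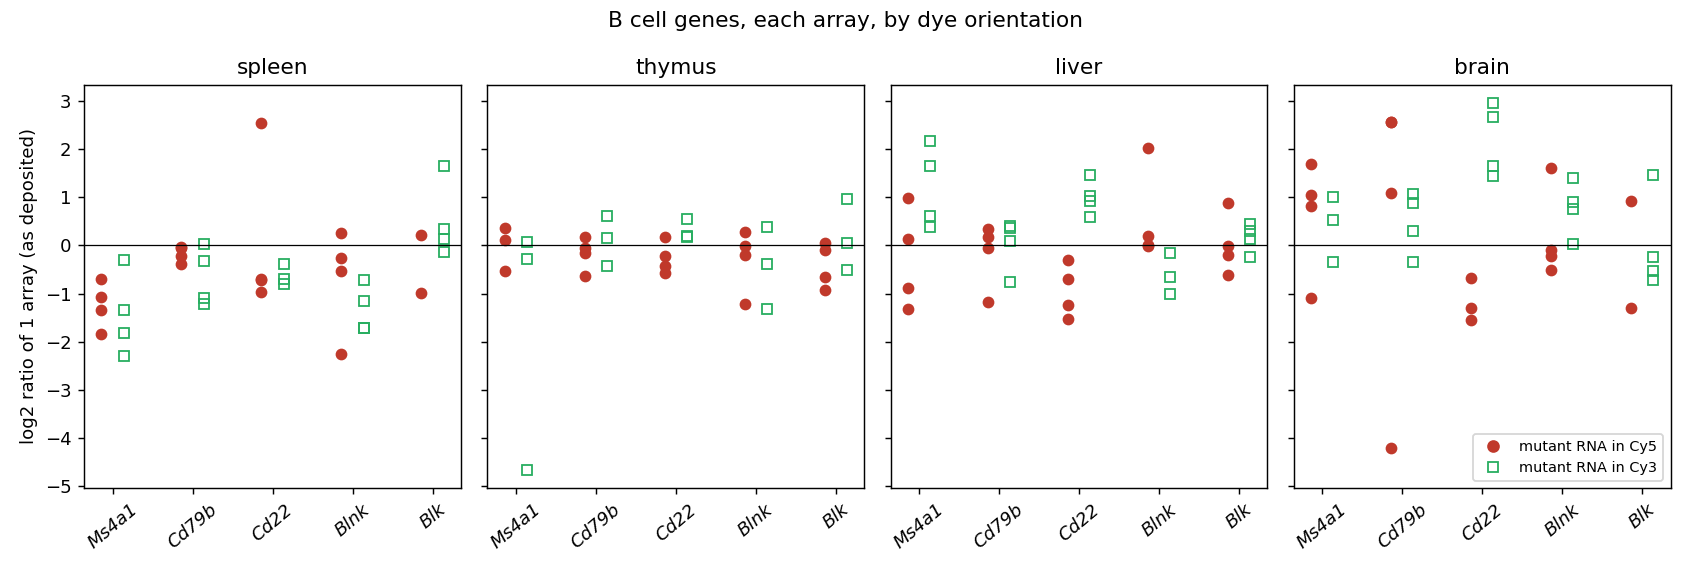
Each point is the log2 ratio of 1 array (vertical axis), for 5 B cell genes in 4 organs, with the mutant RNA in Cy5 (filled circles) or in Cy3 (open squares). Spleen values of Ms4a1 are below 0 in both orientations, whereas Cd22 lies below 0 in Cy5 and above 0 in Cy3 on every liver and brain array with a value.

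Cd22 showed the clearest split by dye outside the spleen. In liver its Cy5 arrays were at -0.30, -1.53, -1.25 and -0.70 in mice 1 to 4 and its Cy3 arrays at 0.91, 1.45, 0.59 and 1.03. In brain its Cy5 arrays were at -0.67, -1.55 and -1.30 in mice 1 to 3 and its Cy3 arrays at 1.45, 2.95, 1.65 and 2.66 in mice 1 to 4. The orientations did not overlap in either organ, which was so for 11.9% of all spots in liver and 19.7% in brain. With dye as a term in limma over single arrays, the difference between the orientations was -1.94 (SE 0.34, adjusted p = 0.139) in liver and -3.35 (SE 0.49, adjusted p = 0.0592) in brain. The Cd22 arrays of spleen mice 2 to 4 had no such split, at -0.70, -0.73 and -0.96 in Cy5 and -0.69, -0.80 and -0.39 in Cy3. Blnk in liver was split the other way, with its Cy5 arrays at -0.002 to 2.02 and its Cy3 arrays at -1.002 to -0.17. Averaging the 2 arrays of a mouse takes out an additive effect of this kind, and a mouse with a single array carries it whole.

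In thymus, where T cells mature and B cells are a small population, all 5 genes were measured in at least 3 mice. Their means were below 0 in 5 of 5, as for 51.3% of all 20185 spots, and their median was -0.20 against -0.01 over all named genes. Without mouse 2 the median was 0.007 with 2 of 4 genes below 0, without mouse 3 it was -0.09, and in Cy3 alone it was 0.11 with 2 of 5 below 0. Limma with Benjamini-Hochberg adjustment called 0 of the 5 genes and 0% of all spots at 0.05, and 3.13% of spots passed without adjustment. Ms4a1 had ratios of -2.60, -0.78 and -0.09 in mice 1, 2 and 4, a mean of -1.15 ± 1.30 (SD, n = 3, adjusted p = 0.86). The value of mouse 1 rested on its Cy3 array at -4.66, beside -0.54 in Cy5. That of mouse 2 came from a lone Cy5 array at 0.36, before a correction for dye that used mice 1 and 4 alone, since mouse 3 had no Cy5 value, and so drew on the same -4.66. Ms4a1 was the 1 gene of the 5 below 0 in every thymus with a value used (8.08% of all spots). This held only with that correction and with a lone Cy3 array of mouse 3, at 0.068, left out.

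The other 4 genes lay near the pool in thymus. Blnk was at 0.09, -0.04, -1.26 and -0.05 in mice 1 to 4 (mean -0.32 ± 0.63, SD, n = 4, adjusted p = 0.86 by limma), so mouse 3 alone was low, on both of its arrays. Blk had a mean of -0.20 ± 0.39, Cd79b of -0.11 ± 0.42 and Cd22 of -0.03 ± 0.25 (SD, n = 4 each), each with mice on both sides of 0.

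In liver the genes lay on both sides of the pool, with a median of 0.03 against 0.01 over all named genes. Limma called 0 of the 5 and 0% of all 19973 spots, and 4.49% of spots passed 0.05 without adjustment. Ms4a1 was at 0.80, 0.43, 0.89 and -0.25 in mice 1 to 4 (mean 0.47 ± 0.52, SD, n = 4, adjusted p = 0.921). Its Cy3 arrays were all above 0 and its Cy5 arrays fell on both sides. Cd79b was at 0.22, 0.29 and 0.15 in mice 1, 3 and 4 and at -0.96 in mouse 2, which stood apart. Blnk was the 1 gene below 0 in every liver with a value from both arrays (6.2% of all spots), with a mean of -0.27 ± 0.17 (SD, n = 3). A lone Cy5 array of mouse 3 at 2.015 was not used for Blnk, so its place below 0 in every liver rests on leaving that array out. Blk and Cd22 had means of 0.09 ± 0.39 and 0.03 ± 0.28 (SD, n = 4 each).

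In brain, an organ with few B cells, the 4 genes with at least 3 mice all had means above 0, with a median of 0.48 against 0.01 over all named genes, and 46.6% of all spots had a mean below 0. The median was 0.96 without mouse 1, 0.25 without mouse 4 and -0.14, with 2 of 4 below 0, when the ratio was read as Cy5 over Cy3. Of the 4, 2 were above 0 in every brain measured (14.6% of all 19102 spots). Limma called 0 of the 4 and 0% of all spots, and 11.7% of spots passed 0.05 without adjustment. Ms4a1 was at 0.91, 0.79 and 0.67 in mice 1, 3 and 4 (mean 0.79 ± 0.12, SD, n = 3, unadjusted p = 0.0132, adjusted p = 0.42 by limma). Its value in mouse 4 averaged arrays on opposite sides of 0, 1.695 in Cy5 and -0.347 in Cy3. A lone Cy5 array of mouse 2 at -1.10 was not used. Cd22 was at 0.39, 0.70 and 0.18 in mice 1 to 3 (mean 0.42 ± 0.26, SD, n = 3, adjusted p = 0.462 by limma), as averages of arrays on opposite sides of 0.

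Cd79b and Blnk varied more between brains than Ms4a1 and Cd22. Cd79b was at -2.28, 0.70, 1.82 and 1.72 in mice 1 to 4 (mean 0.49 ± 1.91, SD, n = 4, adjusted p = 0.747 by limma), and its lowest array was the Cy5 array of mouse 1 at -4.21. Blnk was at 0.39, 0.59, -0.25 and 1.18 (mean 0.48 ± 0.59, SD, n = 4, adjusted p = 0.454 by limma). Blk had values in 2 brains, 1.19 in mouse 2 and -0.78 in mouse 3.

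Differences between organs of the same mouse show the contrast of spleen with liver and brain, and since they hold the spleen ratios they are given without a test. Ms4a1 was lower in spleen than in liver in 4 of 4 mice, with differences from -2.25 to -0.95 (mean -1.80 ± 0.59, SD). It was lower than in brain in 3 of 3 mice, with differences from -2.04 to -1.88 (mean -1.97 ± 0.08, SD). Single arrays behind these averages spread wider, as in brain of mouse 4 at 1.695 in Cy5 and -0.347 in Cy3. Cd22 was lower in spleen than in thymus (-0.61 ± 0.29) and than in liver (-0.64 ± 0.21) in 3 of 3 mice each (SD). The backgrounds for a spot lower in spleen in every mouse were 11.9% for thymus, 12.5% for liver and 12.1% for brain.

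Blnk differed by -1.01 ± 0.67 (SD) from liver, lower in 3 of 3 mice, and by -1.50 ± 1.12 (SD) from brain, lower in 3 of 4. Cd79b was lower in spleen in 3 of 4 mice against each of the other organs, with mean differences of -0.31 (thymus), -0.34 (liver) and -0.90 (brain). Ms4a1 in spleen was not set apart from thymus, with a mean difference of -0.21 ± 1.50 (SD, n = 3), lower in 2 of 3 mice. The exception was mouse 1 at 1.52, whose thymus value holds the Cy3 array at -4.66, and the lowest difference was -1.12. The 3 comparisons share the spleen values of the same mice.

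Between thymus, liver and brain, whose values did not choose the list, limma called 0 spots in each of the 3 comparisons (0%), with 4.18% (thymus against liver), 10.7% (thymus against brain) and 8.57% (brain against liver) past 0.05 without adjustment. Ms4a1 had the widest differences of the B cell genes where thymus was compared. Its thymus values rest in part on the Cy3 array of mouse 1, at -4.66. Its ratio in thymus less that in liver was -1.62 (SE 0.56, adjusted p = 0.911 by limma), and less that in brain it was -1.94 (SE 0.59, adjusted p = 0.457 by limma). Between brain and liver its difference of 0.33 (adjusted p = 0.752 by limma) was the smallest of the 4 genes tested. Blnk differed by 0.75 between brain and liver (adjusted p = 0.588, limma) and by -0.80 between thymus and brain (adjusted p = 0.478, limma). None of these differences passed the threshold, with or without the mouse as a block.

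The wider B cell programme in spleen was read from lists chosen with earlier results of these arrays known. Of 10 measured coreceptors and surface antigens, 9 had a mean below 0 (43.9% of all named genes) and 6 were below 0 in every mouse (13% of all spots). Their median was -0.58. Cd74, the invariant chain of MHC class II, was at -0.65, -0.55, -0.79 and -1.43 in mice 1 to 4 (mean -0.86 ± 0.39, SD, n = 4). Cd37, a tetraspanin of mature B cells, was at -1.13, -0.48, -0.73 and -0.94 (mean -0.82 ± 0.28, SD, n = 4). Fcgr2b, the inhibitory Fc receptor that B cells share with myeloid cells, was at -0.74, -0.70, -0.52 and -0.87 (mean -0.70 ± 0.15, SD, n = 4). All 3 were below 0 in every mouse. By contrast, the receptors of the survival factors BAFF and APRIL, Tnfrsf13c and Tnfrsf13b, which were picked out after their values were seen, were at 0.05 ± 0.75 and -0.003 ± 0.15 (SD, n = 4 each). The coreceptor list lay below 0 in both orientations, with medians of -0.44 in Cy5 and -0.65 in Cy3. Its medians were -0.08 in thymus, 0.01 in liver and 0.16 in brain.

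**Figure D3:**
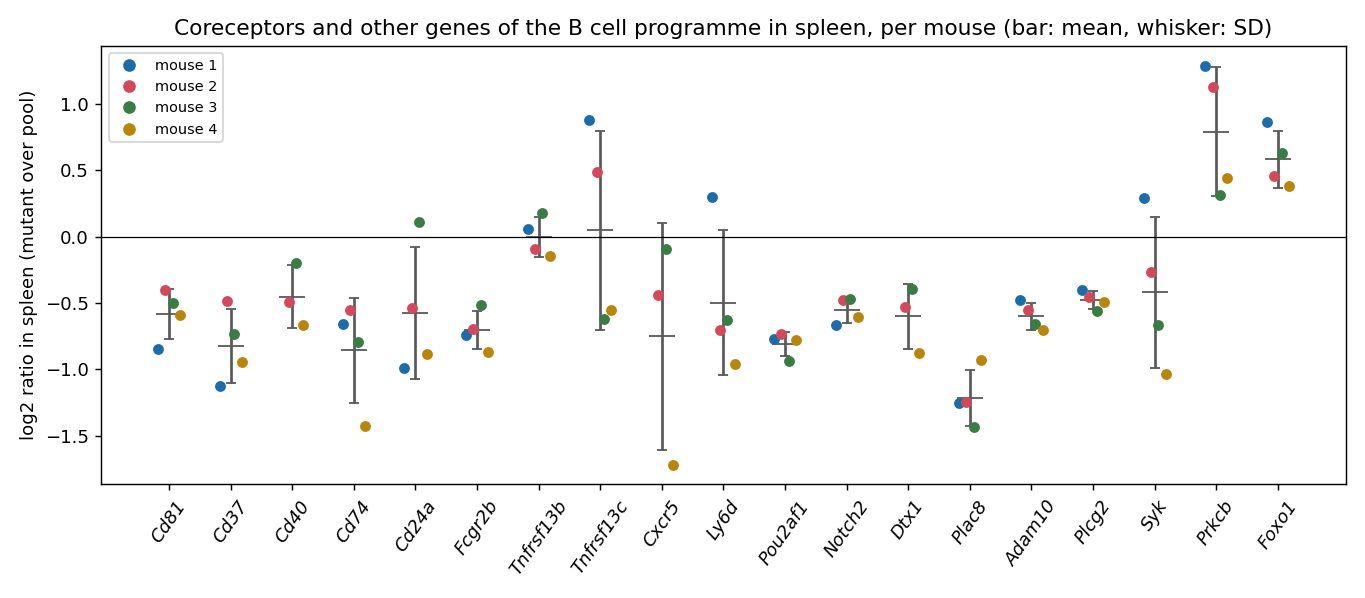
The log2 ratio in spleen (vertical axis) is shown per mouse (coloured points) for the 10 measured coreceptors and surface antigens, from Cd81 to Ly6d, and for 9 genes of the other B cell lists picked with their values known, with the mean as a bar and the SD as whiskers. Plac8 and Pou2af1 are below 0 in every mouse, whereas Prkcb and Foxo1 are above 0 in every mouse.

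The signalling cascade behind the receptor did not lie on one side of the pool. Of 14 measured genes 7 had means below 0 and 7 above, with a median of -0.02, and 43.9% of all named genes had a mean below 0. Plcg2, the phospholipase that Blnk docks, had a mean of -0.48 ± 0.07 (SD) and was below 0 in 4 of 4 mice, and Syk, the kinase that binds the phosphorylated receptor chains, had a mean of -0.42 ± 0.57 (SD), below 0 in 3 of 4. Prkcb, the protein kinase C that acts after Plcg2, lay on the other side at 0.79 ± 0.49 (SD), above 0 in 4 of 4.

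Among B cell transcription factors 7 of 10 measured means were below 0 (43.9% of all named genes), with a median of -0.18. Pou2af1, the coactivator that Oct factors recruit to octamer sites, was at -0.77, -0.73, -0.94 and -0.78 in mice 1 to 4 (mean -0.81 ± 0.09, SD, n = 4), a narrow range. Irf4 was at -0.49 ± 0.61 (SD, n = 4) and Foxo1 at 0.58 ± 0.22 (SD, n = 4), above 0 in every mouse. Of the 17 genes listed for immunoglobulin and the surrogate light chain 2 were measured in spleen, Vpreb3 at 0.22 and Vpreb1, picked out after its value was seen, at -0.26. Of the 8 listed for plasma cells 2 were, Xbp1, the secretory factor, at -0.20 and Sdc1, likewise picked out, at 0.03.

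Genes of marginal zone B cells and of Notch2 signalling fell on both sides in spleen. Of 16 measured, 9 had means below 0 and 7 above, with a median of -0.06, and 43.9% of all named genes had a mean below 0. Of the 16, 7 were below 0 in every mouse and 3 above 0 (13% and 18% of all spots). Plac8 was the lowest at -1.25, -1.24, -1.44 and -0.93 in mice 1 to 4 (mean -1.21 ± 0.21, SD, n = 4). Adam10, the protease that cleaves Notch2 after ligand binding, was at -0.48, -0.56, -0.66 and -0.70 (mean -0.60 ± 0.10, SD, n = 4). Maml1, a Notch coactivator, was at 0.65 ± 1.27 (SD, n = 4), on a spot in the last of the 20 parts of the table, where a displacement of 11 places ranked 20th. Notch2, the receptor, and its target Dtx1 were picked out after their values were seen. Notch2 was at -0.67, -0.48, -0.47 and -0.60 in mice 1 to 4 (mean -0.55 ± 0.10, SD, n = 4). Dtx1 was at -0.53, -0.40 and -0.87 in mice 2 to 4 (mean -0.60 ± 0.25, SD, n = 3). Limma called 0 genes of these lists in thymus, liver and brain, where it called 0% of all spots.

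Markers of other cells of the spleen were read beside these genes. Of all named genes, 43.9% had a mean below 0 in spleen and 49.1% in brain. Exocrine pancreas genes, from an organ that borders the spleen, had a median of -0.44 in spleen with 6 of 7 below 0, and the medians of single mice ran from -0.78 to 0.31. Cpa1 was at -0.76 ± 0.21, below 0 in every mouse, Cela2a at -0.74 ± 0.95 and Clps at -0.44 ± 0.37 (SD, n = 4 each). In brain the same list had a median of 0.61 with 5 of 6 above 0, the same sides as the B cell genes. Myeloid genes had a median of -0.14 in spleen (10 of 15 below 0), with Lyz2, the macrophage lysozyme, at -1.15 ± 0.11 and Mpo, the peroxidase of granulocytes, at 0.48 ± 0.61 (SD, n = 4 each). Fcgr1 was at -0.475 ± 0.50 (SD, n = 4). Erythroid genes had a median of -0.27 (6 of 7), genes of stroma and endothelium -0.19 (8 of 11) and T cell genes 0.10 (5 of 13). Among erythroid genes Hba-a1 was at -0.57 ± 0.49, Alas2 at -0.35 ± 0.43 and Car2 at -0.34 ± 0.24 (SD, n = 4 each). In stroma and endothelium Dcn was at -1.08 ± 1.23, Ccl21a at -0.87 ± 0.34 and Col1a2 at -0.44 ± 0.16 (SD, n = 4 each). Dcn, Ccl21a and Col1a2 were below 0 in every mouse. Of T cell genes, Cd247 was at 1.02 ± 1.82, Cd28 at -0.67 ± 0.35 and Cd8b1 at 0.51 ± 1.58 (SD, n = 4 each). Cd28, on a spot in the last part of the table, was below 0 in every mouse. The T cell median was 0.007 (6 of 13) without mouse 1, in which Cd247 stood at 3.72 and Cd8b1 at 2.88, and -0.03 with arrays centred. The part of these shifts in the spleen ratios of the B cell genes was not tested.

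**Figure D4:**
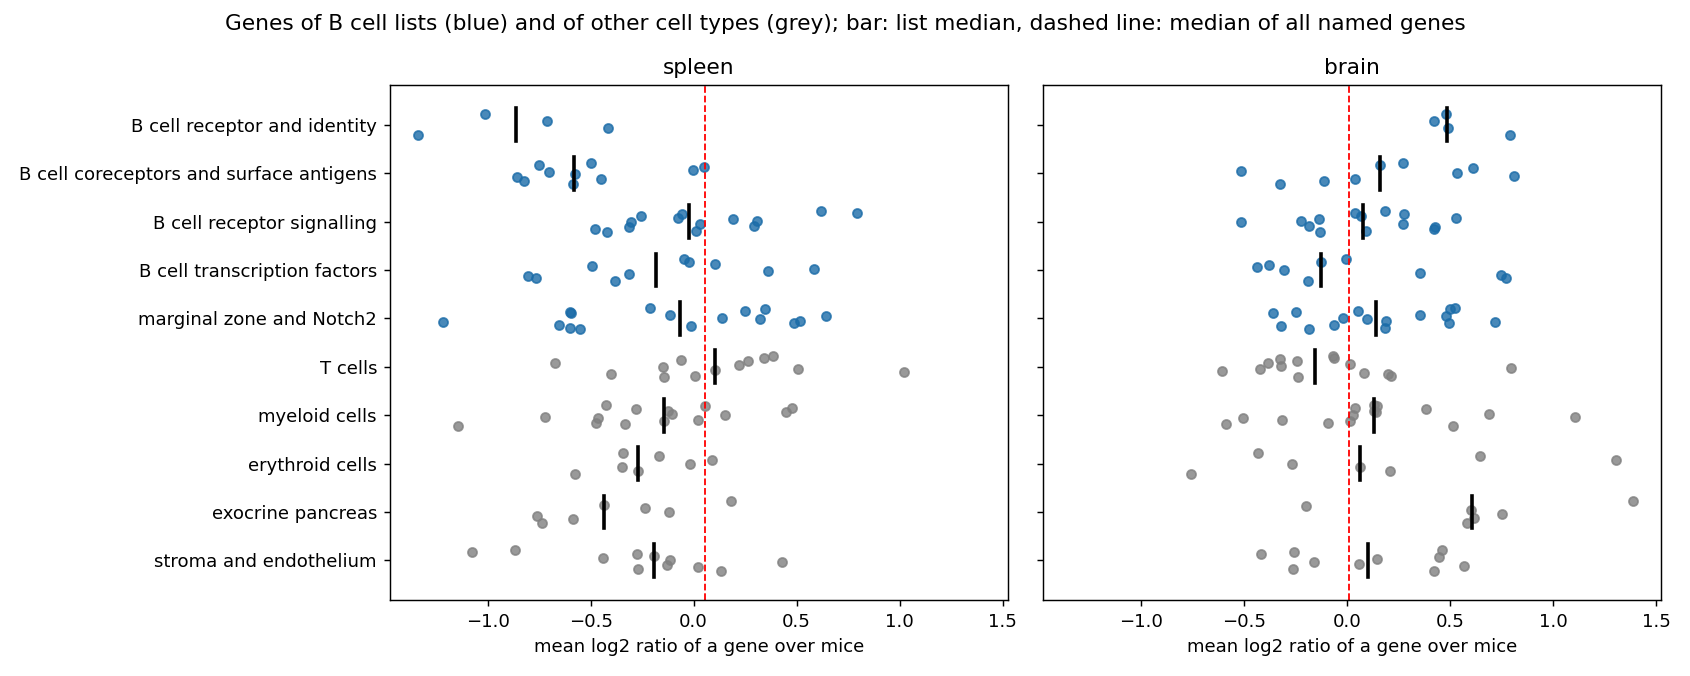
Each point is the mean log2 ratio over mice (horizontal axis) of 1 gene with at least 3 mice, in spleen (left) and brain (right), for B cell lists in blue and lists of other cell types in grey. A black bar is the median of a list and the dashed line the median of all named genes. In spleen the B cell receptor and identity genes (median -0.86) and the coreceptors (-0.58) lie lowest among the lists shown. Without mouse 1 exocrine pancreas (-0.60) lies just below the coreceptors (-0.59).

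The genes whose pattern was most like that of the B cell genes were found by Pearson's r with the mean of the B cell genes over the 16 mouse and organ values, which share arrays and mice and include the spleen values. Of 6925 genes compared (median r -0.03, 99th percentile 0.68), the highest were Tm6sf2 (r = 0.86, rho = 0.71), Cybb (r = 0.86, rho = 0.69), Cd74 (r = 0.83, rho = 0.80), Adh7 (r = 0.83, rho = 0.75, 15 values) and Tgfbi (r = 0.81, rho = 0.81). Cybb encodes the oxidase subunit of phagocytes, which B cells also express, and Tgfbi an extracellular matrix protein. All 5 had their lowest organ mean in spleen and their highest in brain, at -0.49 and 0.49 for Cybb and -0.61 and 0.79 for Tgfbi.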

How the data were processed

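The deposited values are 1 log2 ratio per spot and array, made by the authors from scans of dual-colour cDNA arrays; the base is taken from a heading of the study, and the normalization and the filter on weak spots are not given in the sources used here. Since no single-channel intensities were used, signal over background is unknown, and the number of arrays limits the precision. The members and all 12 gene lists were chosen with earlier results of these data known.

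No normalization was added. Values beyond 12 in size were dropped. A spot was named by the probe 11 places earlier in the probe table. A mouse's value in an organ is the mean of its 2 arrays and needs both, and mice are the replicates. For thymus of mouse 2, with 1 array, each spot was reduced by the dye difference averaged over those of the remaining 3 mice with both values and divided by 2. A gene with several spots took their mean. Spots with at least 3 mice were tested against 0 within an organ, or between organs, with limma 3.58.1 in R 4.3.3 (empirical Bayes, two-sided, Benjamini-Hochberg over all spots, threshold 0.05). The fit was tested on simulated data. Other tables used Python 3.11.15, pandas 2.3.3, numpy 2.4.6 and matplotlib 3.10.9.

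Every measured B cell gene is named, with up to 3 genes per list with the largest mean spleen ratio in size among those measured in 4 mice, and the 5 genes most like the members. Mice are paired across organs by the animal numbers in the labels. Deviations of the same mouse in different organs correlated at -0.10 to 0.10 over spots, and above 0.1 in 1 of 24 pairs. Alternatives read the ratio as Cy5 over Cy3, took names as listed, centred or scaled arrays, kept lone or extreme values, used 1 dye orientation, left out a mouse, or changed the filter, the model, the moderation or the block.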

Additional observations from a re-analysis of the deposited data

Results flagged for a closer look

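The Ms4a1 ratio was below 0 in all 4 spleens and above 0 in the 3 brains with a value from both arrays. The difference between the organ means was -2.13 (-1.34 against 0.79). This difference holds the values that chose the gene and was not tested. In thymus and brain the Ms4a1 ratios that were used also lay on opposite sides of 0. Lone arrays on the other side were left out, at 0.068 in thymus of mouse 3 (Cy3) and -1.10 in brain of mouse 2 (Cy5). The thymus and brain means differed by -1.94. That difference was tested by limma between the organs and did not pass (adjusted p = 0.457), and the thymus value of mouse 2 lies below 0 only with the correction for dye. Cd22 was below 0 in the 3 spleens and above 0 in the 3 brains with a value from both arrays, a difference of -1.13 (-0.71 against 0.42) that was not tested.

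Of 13 gene and organ groups with 4 mice, 2 held a mouse far from the others by Dixon's criterion, which chance alone meets in about 1 in 20 groups. Cd79b in liver was at -0.96 in mouse 2, with the other mice from 0.15 to 0.29. Blnk in thymus was at -1.26 in mouse 3, with the other mice from -0.05 to 0.09.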

How the results depend on the processing

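The spleen median of the B cell genes (-0.86) turned to 0.17 when the ratio was read as Cy5 over Cy3 and moved to -0.41 with lone array values kept, -0.44 in Cy5 alone and -0.25 with names as listed, and ran from -0.98 to -0.70 leaving out each mouse in turn. Centring, scaling, Cy3 alone and extreme values kept moved it by less than the spread between mice. With lone values kept and in Cy3 alone Blk entered, which gave 5 genes in place of 4. Over the same 4 genes the median was -0.99 in Cy3 and -0.44 in Cy5. The medians of the differences were -0.46 for spleen minus thymus (0.28 as Cy5 over Cy3, 0.16 with listed names, -0.55 to -0.37 leaving out a mouse), -0.82 for spleen minus liver (0.59, 0.0153 and -0.996 to -0.66) and -1.50 for spleen minus brain (0.23, -0.13 and -1.93 to -1.22, with -1.05 for scaled arrays, -0.90 with lone values and -0.78 in Cy5 alone).
Read as Cy5 over Cy3, Ms4a1 in spleen was at 0.10, Cd79b at 0.24, Blnk at 0.32, the coreceptor list at 0.15 and the marginal zone list at 0.22. With listed names Ms4a1 was at 0.20, Blnk at 0.27, the coreceptors at 0.00547 and the marginal zone list at 0.11. Cd22 was at 0.11 with lone values kept and 0.04 in Cy5 alone. The marginal zone list was at 0.0700 in Cy5 alone and ran from -0.13 to 0.0249 leaving out a mouse, above 0 without mouse 4. Alternatives on these 2 lists, and thymus mouse 2 without correction, were chosen after seeing the data. The causes were not tested.
Thymus, liver, brain and their differences kept 0 B cell genes called under every alternative run, apart from brain in Cy3 alone. This includes leaving out each mouse (0 to 0) and the replicate block (0 in each of the 3 differences). In brain in Cy3 alone limma called Cd22 (1 gene, 2.18, adjusted p = 0.044) among 734 higher and 699 lower of 20546 spots. With the mutant RNA in Cy5 the brain mean of Cd22 was -1.17, below 0 on all 3 arrays, so its sign turned with the dye. Each gene has 1 spot, so a choice among spots was not run.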
